A study of Mus musculus with 8 samples.

Results

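Transcripts of 10 genes that set the shape and turnover of mitochondria were measured in heart muscle cells of newborn mice: Mfn1, Mfn2, Opa1, Oma1, Dnm1l, Fis1, Mff, Mief1, Mief2 and Pink1. They were taken by symbol from a table of 48440 gene entries, each symbol stood on 1 entry, and all 10 were among the 13771 genes that passed the filter on low counts. The cells were purified cardiomyocytes of C57BL6/J pups, collected at postnatal day 2. The 8 libraries come from 4 litters, each represented by a male and a female sample. The labels name no treatment and do not say how many pups went into a sample. The contrasts that follow from this are male against female (n = 4 each) and litter against litter (n = 2 each). No label gives the day on which cells were prepared, so a litter and its preparation cannot be told apart.

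Mitochondria fuse and divide throughout a cell's life. The mitofusins Mfn1 and Mfn2 are GTPases that join outer membranes, Opa1 joins inner membranes and shapes the cristae, and Oma1 is a stress-activated protease that cleaves Opa1. Dnm1l encodes Drp1, the cytosolic GTPase that constricts mitochondria, and Mff, Mief1, Mief2 and Fis1 are outer membrane proteins linked to its recruitment. Pink1 is a kinase that accumulates on damaged mitochondria, where it phosphorylates ubiquitin and marks the organelle for removal by autophagy. In the heart, loss of both mitofusins or of Drp1 is known to cause heart failure, and the time after birth is one of rapid mitochondrial growth and replacement.

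On GRCm38, Pink1, Mfn2 and Oma1 lie on chromosome 4, Opa1 and Dnm1l on chromosome 16, and the others on chromosomes 1 (Mff), 3 (Mfn1), 5 (Fis1), 11 (Mief2) and 15 (Mief1). The promoters of Pink1, Opa1 and Dnm1l are shown because these 3 genes differed between litters. Each is 250 bases before to 50 bases after a RefSeq start site on GRCm38.p6, 5′ to 3′ on the gene's strand, at chr4:138326247-138326546 (minus strand), chr16:29579084-29579383 (plus strand) and chr16:16358982-16359281 (minus strand). Capitals mark matches to any of 6 motifs searched on both strands: FOXO (GTAAACA), ERR (AAGGTCA), NRF1 (GCGCA and GCGC with any 1 base between them), ETS (CCGGAAG), the E-box (CACGTG) and the CCAAT box (CCAAT).
Pink1: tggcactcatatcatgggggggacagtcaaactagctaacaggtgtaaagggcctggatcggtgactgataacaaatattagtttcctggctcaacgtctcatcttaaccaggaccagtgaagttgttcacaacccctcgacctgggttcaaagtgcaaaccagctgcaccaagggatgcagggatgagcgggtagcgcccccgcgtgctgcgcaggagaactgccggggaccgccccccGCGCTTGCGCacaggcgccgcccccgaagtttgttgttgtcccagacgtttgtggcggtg
Opa1: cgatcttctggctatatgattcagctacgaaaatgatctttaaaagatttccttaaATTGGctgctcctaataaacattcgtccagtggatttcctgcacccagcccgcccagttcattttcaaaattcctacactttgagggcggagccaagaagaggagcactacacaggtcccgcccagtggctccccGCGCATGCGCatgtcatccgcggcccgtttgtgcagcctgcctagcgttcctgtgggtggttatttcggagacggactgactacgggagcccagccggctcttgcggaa
Dnm1l: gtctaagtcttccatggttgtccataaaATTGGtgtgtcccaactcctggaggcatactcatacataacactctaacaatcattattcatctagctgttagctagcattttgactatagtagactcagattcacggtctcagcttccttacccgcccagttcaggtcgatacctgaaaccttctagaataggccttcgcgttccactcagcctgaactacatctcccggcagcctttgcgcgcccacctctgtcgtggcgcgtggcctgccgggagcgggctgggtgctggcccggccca
The long capital run in Pink1 and in Opa1 is the NRF1 motif, and the short ones in Opa1 and Dnm1l are the CCAAT box on the reverse strand. No matches overlapped in the 10 windows. All 10 genes had a promoter in the RefSeq table. The NRF1 letters were found in 3 of the 10 promoters (Pink1, Opa1 and Oma1) and in 4.6% of all 32851 promoters of this length. ETS letters were found in 3 (Mfn1, Fis1 and Mief1) against 8.86%, the CCAAT box in 6 against 37.4%, and the E-box in 1 (Mief2) against 7.15%. Neither the FOXO nor the ERR letters stood in any of the 10 windows, against 3.65% and 4.72% of all promoters. These matches are descriptions of the letters and not binding sites.

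Library totals ran from 14226342 counts (female of litter 3) to 24910243 (male of litter 1). The 10 genes had between 267 counts (Oma1 in the female of litter 3) and 17761 counts (Mfn2 in the male of litter 1). Levels below are in CPM: each count is put relative to its library's total, corrected by a TMM factor for differences in composition. The labelled cell type was checked on 8 cardiomyocyte markers, among them Tnnt2, Actn2 and Myh6, which summed to 51800 to 62800 CPM of plain totals and were at 0 in no library. Markers of other cells summed to 33.1 to 246 CPM (fibroblast, 8 genes), 16.0 to 151 CPM (endothelial, 8 genes), 424 to 1060 CPM (mural, 6 genes), 2.86 to 8.65 CPM (macrophage, 5 genes), 100 to 543 CPM (erythroid, 6 genes) and 2.04 to 4.63 CPM (epicardial, 5 genes). Most of the mural sum is 1 gene, Acta2. In these bulk libraries, fewer cells of a type and less RNA per cell cannot be told apart.

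Mfn2 and Pink1 were the most abundant of the 10 transcripts for their length. In CPM per kb of merged exons, Mfn2 stood at 134 ± 8.13 (SD over 8 libraries), Pink1 at 109 ± 23.9 and Mfn1 at 56.7 ± 3.9. Dnm1l followed at 42.6 ± 4.24 and Fis1 at 41.5 ± 3.33, then Opa1 at 30.2 ± 2.79 and Mff at 19.8 ± 1.46. Oma1 (8.79 ± 0.81), Mief2 (8.25 ± 0.546) and Mief1 (4.06 ± 0.178) were lowest. The libraries of 3 neighbouring pairs in this order overlapped, Mfn2 with Pink1, Dnm1l with Fis1 and Oma1 with Mief2, while the other neighbours did not overlap. Dividing by the longest transcript instead raised Fis1 to 74.9, next to Mfn1 at 76.0, and Mff to 49.4, above Opa1 at 38.2. The merged exons of Mff span 9757 bases and its longest transcript 3918 bases. The order of the lowest 3 and of the highest 3 was the same with either length.

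Within a library, Mfn2 was above Mfn1. Mfn2 per kb was 2.12 to 2.7 times Mfn1 per kb over the 8 libraries, with the lowest and the highest value in the females of litters 3 and 2. Over the libraries the mitofusins followed each other weakly (Pearson's r of log2 CPM 0.33, n = 8). Fusion genes (Mfn1, Mfn2 and Opa1) made up 63.8 to 66.7% of the summed CPM per kb of fusion and fission genes (Dnm1l, Fis1, Mff, Mief1 and Mief2). Pink1 was not always on the same side of Mfn2. It was below Mfn2 per kb in the 6 libraries of litters 1, 2 and 4, at 81.2 to 119 against 134 to 141 CPM per kb. In litter 3 it was above it, with 134.9 against 129.7 CPM per kb for the male and 147 against 115 for the female. With the longest transcript as length, Pink1 was above Mfn2 in the female of litter 3 alone (166 against 138), and in the male it was 152 against 155.

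**Figure D1:**
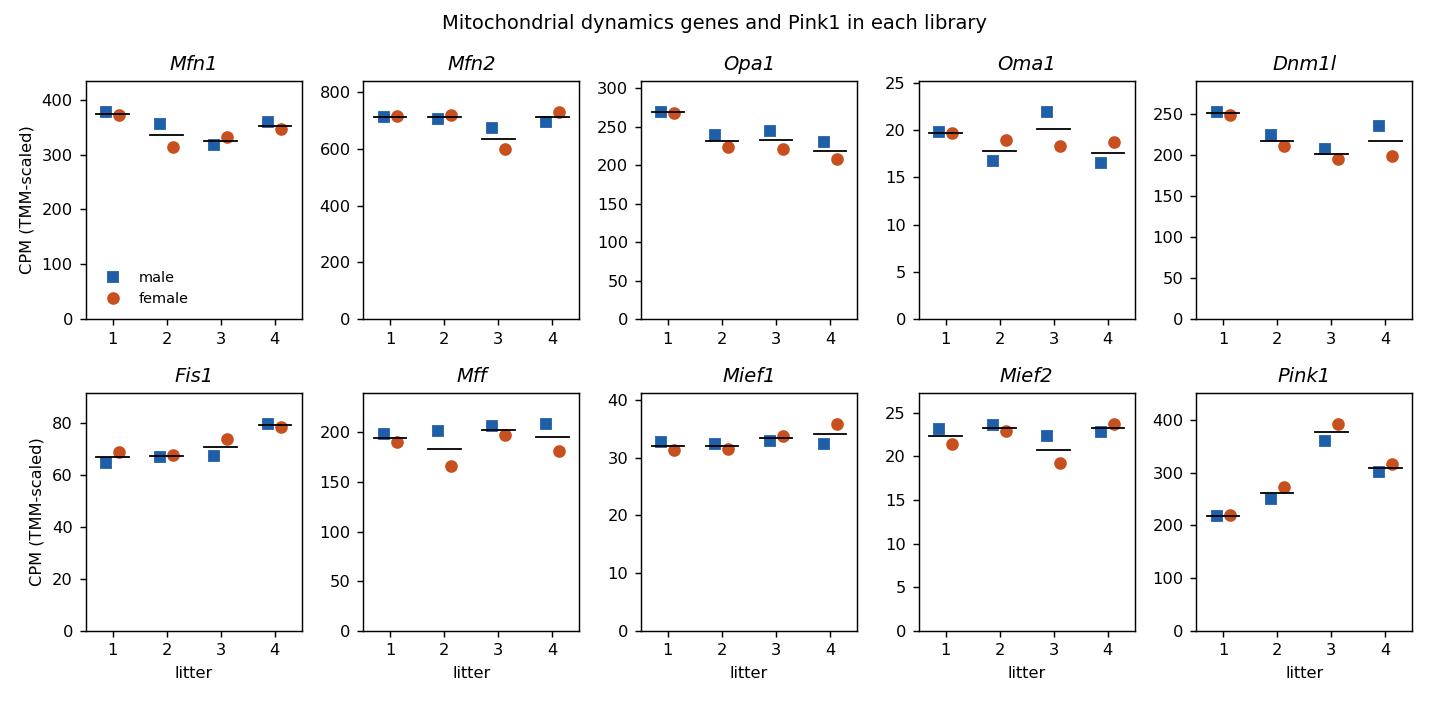
CPM of each of the 10 genes (y axis, TMM-scaled, from 0) in the 8 libraries, by litter (x axis), with males as squares, females as circles and the mean of a litter as a bar. Pink1 runs from 217 to 393 CPM, with each litter apart from the others, while the other 9 genes span at most a ratio of 1.33 between their highest and lowest library.

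Pink1 differed between litters more than any other of the 10 genes. It had 217 CPM in the male and 220.3 CPM in the female of litter 1, 251 and 272 CPM in litter 2, 301 and 317 CPM in litter 4, and 361 and 393 CPM in litter 3. The order of the litters was the same in both sexes, and the ranges of the 4 litters did not overlap. Ranges of the 4 litters were apart for 6.78% of all genes tested, and for 1 of these 10. Ranges that were apart and rose in the order 1, 2, 4, 3 were found for 1.06% of all genes. Litter means ran from 219 ± 2.20 to 377 ± 23.0 CPM (SD, n = 2), a ratio of 1.72. In edgeR's quasi-likelihood test over the 3 litter coefficients, Pink1 had an adjusted p-value of 6.16e-05 and ranked at place 112 of 13771 genes. Against the mean of the other 3 litters, Pink1 fell by 0.51 on the log2 scale in litter 1 (SE 0.06, edgeR adjusted p = 0.000185) and rose by 0.53 in litter 3 (SE 0.05, adjusted p = 3.32e-05). In litters 2 and 4 its differences of -0.17 and 0.15 did not pass (adjusted p = 0.123 and 0.0957). With litter 3 left out, Pink1 still passed the litter test (adjusted p = 0.00279, with a range over litters of 0.50 on the log2 scale).

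Opa1 and Dnm1l were highest in litter 1, where Pink1 was lowest. Opa1 had 269 and 268 CPM in the male and the female of litter 1, 239 and 224 CPM in litter 2, 244 and 221 CPM in litter 3 and 229.7 and 208 CPM in litter 4. Both libraries of litter 1 lay above the other 6. The share of all genes with 1 litter apart in this way was not counted, here or for the genes below. Dnm1l had 252 and 249 CPM in litter 1, 224 and 210.5 CPM in litter 2, 207 and 196 CPM in litter 3 and 235 and 199 CPM in litter 4, again with litter 1 above all others. Opa1 rose in litter 1 by 0.24 (SE 0.06, edgeR adjusted p = 0.0152) and Dnm1l by 0.25 (SE 0.06, adjusted p = 0.0185) against the mean of the other 3 litters. Dnm1l also fell by 0.18 in litter 3 (SE 0.06, adjusted p = 0.0463), a call that was lost with DESeq2 size factors (0.0507), with library size alone (0.111), without the low-count filter (0.054) and in 7 of the 8 fits without 1 library. In the litter test, the adjusted p-values of Opa1 and Dnm1l were 0.0253 and 0.0276.

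Without both libraries of litter 1, the range over litters was 0.09 (Opa1) and 0.11 (Dnm1l) on the log2 scale, against 0.30 and 0.32 with them, and the adjusted p-values in edgeR's litter test were 0.599 and 0.487. Without its male alone the calls were also lost (0.0873 and 0.0894), with wider ranges of 0.36 and 0.38, and without its female (0.326 and 0.291) the ranges were 0.24 and 0.26. Dnm1l was also lost without the male (0.0737) or the female (0.0551) of litter 3 or both (0.101). Without a term for sex they were 0.0717 and 0.0776. In the comparison of litter 1 with the others, leaving out the male of litter 1 gave 0.104 and 0.113, leaving out its female 0.359 and 0.369, and Dnm1l missed the threshold without litter 3 (0.0725). Per kb, the ratio of Pink1 to Opa1 was 2.38 and 2.42 in the male and the female of litter 1, 3.1 and 3.59 in litter 2, 3.86 and 4.5 in litter 4, and 4.36 and 5.23 in litter 3, higher in the female in each litter. Of exon bases of Dnm1l, 4.67% lie opposite an antisense gene, and whether counting used the strand is not given in the sources used here, so a small part of its count is uncertain. Same-strand genes share exon bases with Pink1 (the microRNA genes Gm27646, 4.115%, and Mir7019, 2.581%) and with Mief1 (AC140267.1, 2.628%). How reads there were counted is not given either.

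Fis1, a small outer membrane protein anchored by its tail, was highest in litter 4. It had 79.9 and 78.6 CPM in the male and the female of that litter, and 64.9 to 74.0 CPM in the other 6 libraries, with no overlap. Against the mean of the other 3 litters it rose by 0.22 (SE 0.06, edgeR adjusted p = 0.0449), but the litter test did not call it (0.0663). The call in litter 4 was lost in each of the 8 fits without 1 library (adjusted p from 0.0531 to 0.313), with DESeq2 size factors (0.0512), with library size alone (0.161) and without the low-count filter (0.0533). RNAs of the mitochondrial genome made up 18.5% (male) and 15.2% (female) of counts in litter 4, against 13.4 to 15% elsewhere, and their part in the level of Fis1 was not tested.

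Mfn1 and Mfn2 did not pass the litter test. Mfn1 had 378 and 372 CPM in litter 1 and between 314 and 359 CPM in the other litters, and its litter differences ran from -0.12 to 0.15 on the log2 scale (litter test, edgeR adjusted p = 0.138). Mfn2 had 674 and 599 CPM in litter 3 and between 695 and 730.1 CPM in the others. Both libraries of litter 3 lay below the other 6, by 0.17 on the log2 scale (SE 0.06), and this difference missed the threshold (adjusted p = 0.0624). It passed without the low-count filter and in the fits without the male of litter 3 or the male of litter 4. The 4 remaining genes did not pass either. Oma1 ran from 16.5 to 21.9 CPM, Mff from 166 to 209 CPM, Mief1 from 31.4 to 35.9 CPM and Mief2 from 19.2 to 23.8 CPM, with adjusted p-values from 0.379 to 0.708 in the litter test.

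As a group, 3 of the 10 genes passed the litter test, where 32.1% of all 13771 genes did, so the share is near the background. Their median range over litters was 0.204 on the log2 scale, against 0.374 for all genes tested and 0.290 for the 8567 genes with a mean of at least 10 CPM. In litter 1, 3 of 10 passed against 13.3% of all genes, with 2 higher (7.86% of all genes) and 1 lower (5.41%). In litter 2, 0 of 10 passed in edgeR and in each edgeR alternative run for it, against 4.18% of all genes (3.3% higher and 0.879% lower). In litter 3, 2 of 10 passed against 28.3%, with 1 higher (13.6%) and 1 lower (14.8%). In litter 4, 1 of 10 passed against 10.5%, and it was higher (4.71% of all genes higher and 5.8% lower). These 4 comparisons share libraries and are not independent. In litter 2, Pink1 alone of the 10 had an unadjusted p-value under 0.05 (0.00979).

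**Figure D2:**
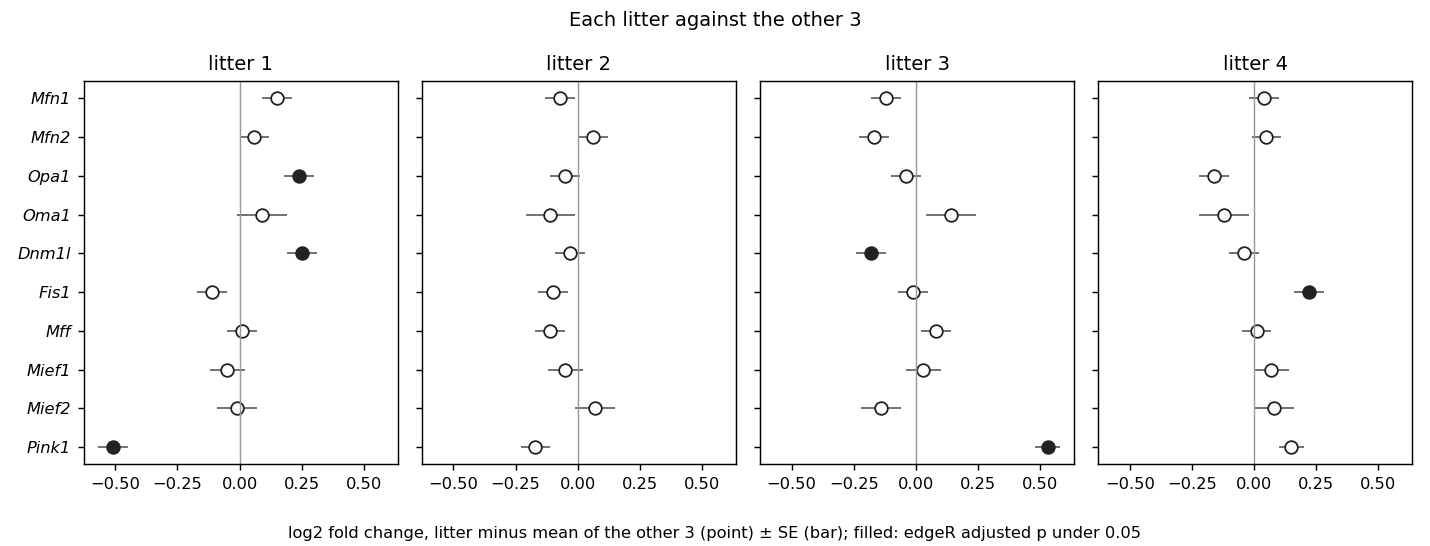
Log2 fold change of each gene in 1 litter against the mean of the other 3 (points, with the standard error as bars; filled points have an edgeR adjusted p-value under 0.05). Pink1 lies at -0.51 in litter 1 and at 0.53 in litter 3, while no other of the 10 genes is further than 0.25 from 0 in any litter.

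Levels of markers of other cell types also differed between the litters. Both libraries of litter 3 had the lowest sums of fibroblast markers (53.0 and 33.1 CPM against 105 to 246 CPM in the others) and of mural markers (454 and 424 CPM against 874 to 1060 CPM), and 6 of 8 and 4 of 6 of these genes fell there, against 14.8% of all genes. Most of the mural sum was Acta2, at 369 and 343 CPM (TMM-scaled) in litter 3 against 804 to 1037 CPM in the others. Cspg4, the next highest mural marker, did not fall there (0.14 on the log2 scale, SE 0.06). Endothelial markers summed to 18.4 and 20.0 CPM in litter 3, against 82.4 and 151 CPM in litter 2 and 16.0 to 62.0 CPM in litters 1 and 4. Of these 8 genes, 5 fell in litter 3 and 8 rose in litter 2 (3.3% of all genes rose there). The sum of the 8 cardiomyocyte markers was 55700 and 53500 CPM in litter 3, against 51800 to 62800 CPM in the other 6 libraries, but single markers moved. Myh7, the slow myosin heavy chain that predominates in the ventricle before birth, had 411 and 378 CPM in litter 1, 642 and 535 CPM in litter 2, 1861 and 1156 CPM in litter 4 and 5598 and 3890 CPM in litter 3. Its litters stand in the order of Pink1 with no overlap. It rose by 2.74 on the log2 scale in litter 3 (SE 0.08, edgeR adjusted p = 5.13e-09) and fell by 2.01 in litter 1 (SE 0.10, adjusted p = 1.43e-06). In litter 3, Myh6, the myosin heavy chain that takes over after birth in mice, fell by 0.61 (adjusted p = 0.000622), and Myl3 and Actn2 each fell by 0.36 (adjusted p = 0.000623 and 0.00186). Ryr2, Tnnt2, Ttn and Tnni3 were at 0.16, 0.11, 0.02 and -0.15 there and did not pass. Of the 8 cardiomyocyte markers, 1 rose and 3 fell in litter 3, with a median of -0.06. These markers are named after their values were seen. Litter 1, where Pink1 was lowest, had 166 and 111 CPM of fibroblast markers in the male and the female, and litter 4 had 216 and 105 CPM. Of the 8 fibroblast markers, 3 rose in litter 1, 6 in litter 2 and 6 in litter 4, against 7.86%, 3.3% and 4.71% of all genes. Erythroid markers summed to 543 CPM in the male of litter 3 and to 100 to 249 CPM in the other 7 libraries. The part of these cells, and of what moved the cardiomyocyte markers, in the levels of Pink1, Opa1 and Dnm1l was not tested.

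Sex was compared next. None of the 10 genes passed, in edgeR or in DESeq2, where 0.0436% of all genes passed in edgeR, and none had an unadjusted edgeR p-value under 0.05, against 2.22% of all genes. Mff, a main receptor of Drp1, came nearest, with 198, 201, 207 and 209 CPM in the males of litters 1 to 4 and 189.7, 166, 197 and 181 CPM in the females. An opposite-strand gene covers 2.0% of the exon bases of Mff, so the doubt about strand given for Dnm1l holds for it too. The males lay just above the females with no overlap, as for 2.07% of all genes, but on plain library totals they overlapped (198 CPM in the lowest male and 201 CPM in the highest female). Its log2 fold change, male minus female, was 0.15 (SE 0.08, edgeR adjusted p = 1, and 0.0716 before adjustment). With litter as a block, which sets the male against the female of each litter, none of the 10 passed, against 0.211% of all genes, and Mff had an edgeR adjusted p of 0.334 (0.0144 before adjustment).

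Some small differences pointed the same way in all litters. Opa1, Dnm1l and Mff were higher in the male of 4 of 4 litters and Pink1 was lower in the male of 4 of 4. Of all genes tested, 10.9% were higher in the male in each of the 4 litters and 9.36% lower. Means were 245 ± 16.8 CPM in males and 230.2 ± 26.3 CPM in females for Opa1, 229.8 ± 19.0 and 214 ± 24.6 CPM for Dnm1l, and 282 ± 62.5 and 301 ± 73.2 CPM for Pink1 (SD, n = 4). None passed with the litter block (adjusted p from 0.334 to 0.515 for these 4 genes). Log2 fold changes of all 10 genes lay between -0.09 and 0.15. The sex difference of Pink1, -0.09 (SE 0.19), is small beside its range over litters of 0.78. Fibroblast markers also summed higher in the male of each litter. They had 166, 246, 53.0 and 216 CPM in the males of litters 1 to 4 and 111, 155, 33.1 and 105 CPM in the females. Their part in these sex differences was not tested.

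Other genes of the same processes were read from lists of 91 genes by role, of which 90 were tested. The list of Pink1 pathway genes, without Pink1, had 6 of 19 called in the litter test (31.6%, against 32.1% of all genes). In litter 3, 6 of the 19 rose and 3 fell, against 13.6% and 14.8% of all genes, and the list's median log2 fold change was 0.09, against 0.00 for all genes. Sqstm1, the p62 receptor that carries ubiquitin-marked cargo to autophagosomes, had 162 and 156 CPM in litter 1, 178 and 174 CPM in litter 2, 200.3 and 206 CPM in litter 4 and 209 and 253 CPM in litter 3, the order of Pink1. It fell by 0.34 in litter 1 (SE 0.07, edgeR adjusted p = 0.00855) and rose by 0.37 in litter 3 (SE 0.07, adjusted p = 0.0022). It was the only 1 of the 90 genes called lower in litter 1 and higher in litter 3, as Pink1 was, a pattern of 3.52% of all genes. Its call in litter 1 was lost without the male and without the female of that litter, and its call in litter 3 without the female of litter 3.

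Optn, the gene of optineurin, another receptor of this pathway, went the other way, up by 0.48 in litter 1 (SE 0.08, edgeR adjusted p = 0.0026) and down in litter 3 (-0.50, SE 0.09, adjusted p = 0.00158). Vps13d rose by 0.28 in litter 1 (SE 0.06, adjusted p = 0.00789) and fell by 0.21 in litter 3 (SE 0.06, adjusted p = 0.0192). In litter 1 these were the 2 of 19 that rose, against 7.86% of all genes, and Sqstm1 was the 1 that fell, against 5.41%. The count that rose was 0 without the male and 1 without the female of that litter. Tomm40, the import pore of the outer membrane, fell by 0.35 in litter 3 (SE 0.06, adjusted p = 0.002). The count of genes of this list that rose in litter 3 was 0 without the female of litter 3 and 1 without its male, with 3 each without the male or the female of litter 1 or the male of litter 4. The list's median there was -0.02 without the female of litter 3, 0.19 without its male and 0.14 with library size alone. The count that fell was 1 without either library of litter 3.

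Among mitophagy receptors, which link mitochondria directly to autophagosomes, 2 of 8 passed the litter test (25%, against 32.1% of all genes). In litter 3, 3 of the 8 rose and 0 fell, against 13.6% and 14.8% of all genes. Bnip3 had 80.1 and 83.9 CPM in litter 3 against 57.2 to 68.2 CPM elsewhere, a rise of 0.37 (SE 0.07, edgeR adjusted p = 0.00241). Bnip3l had 55.1 and 63.0 CPM against 44.0 to 54.8 CPM, a rise of 0.27 (SE 0.08, adjusted p = 0.02). In both, the libraries of litter 3 lay above all others. Without the female of litter 3 the count of receptors that rose was 0.

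Genes of mitochondrial content, such as import, chaperone and respiratory genes, were on balance on the opposite side from Pink1 in litters 1 and 3, and not in litters 2 and 4. Of 10, 8 passed the litter test (80%, against 32.1% of all genes). In litter 1, 5 of the 10 rose and 0 fell, against 7.86% and 5.41% of all genes. In litter 3, 0 rose and 7 fell, against 13.6% and 14.8%. The list's median log2 fold changes were 0.19 and -0.21. In litters 2 and 4 the medians, -0.09 and 0.08, had the sign of the differences of Pink1. Vdac1, named after its values were seen, was at 0.02 in both litters 1 and 3. Cycs, the gene of cytochrome c, had 275 and 268 CPM in litter 1, 200.5 and 193 CPM in litter 2, 169 and 181 CPM in litter 3 and 233 and 203 CPM in litter 4. It rose by 0.47 in litter 1 (SE 0.06, edgeR adjusted p = 0.000592) and fell by 0.37 in litter 3 (SE 0.07, adjusted p = 0.00156). Timm23, Hspa9 and Hspd1 also passed the litter test, with adjusted p-values from 0.00714 to 0.0198. The count that rose in litter 1 was 1 without its male or its female, 3 without the female of litter 2, and 2 without both libraries of litter 3. The count that fell in litter 3 was 1 without its male, 2 without its female and 4 without the male of litter 1. The medians kept their sign in these fits. RNAs of the mitochondrial genome, which are not on this list, were not lower in litter 3 than in litter 1. They made up 14.2% (male) and 13.4% (female) of counts in litter 1, and 14.7% and 15% in litter 3. In litter 2 they made up 14.2% and 14.5%, and in litter 4 18.5% and 15.2%. The amount of mitochondria in the cells was not tested.

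The other lists had smaller shares than the mitochondrial content genes (80%). Of the cristae organising genes, 4 of 11 passed the litter test, near the 32.1% of all genes. These were Micos10 (Minos1 in the table), with 134 and 143 CPM in litter 3 against 156 to 186 CPM elsewhere (edgeR adjusted p = 0.00672), Micos13, Dnajc11 and Immt. In litter 3, 0 of the 11 rose and 4 fell, against 13.6% and 14.8% of all genes. The 4 were Micos10, Micos13, Dnajc11 and Apoo, the last named after its values were seen. The count that fell was 1 without the male or without the female of litter 3. Of the transport genes, which move mitochondria along microtubules, 5 of 7 passed (71.4%), among them Trak1, Trak2, Kif5b and Kif1b. In litter 1, 4 of the 7 rose, against 7.86% of all genes: Trak1, Trak2, Kif5b and Rhot1, the last named after its values were seen. In litters 3 and 4, 2 each fell, against 14.8% and 5.8% of all genes, but 1 fell in 6 of the 8 fits of litter 3 without 1 library, and 0 or 1 in 7 of the 8 of litter 4. In litter 4 the count was 3 without the female of litter 3, 4 without both libraries of litter 3 and 4 with library size alone. The count that rose in litter 1 was 1 without its male, 0 without its female, 2 without the female of litter 2 and 2 without both libraries of litter 3. Of inner membrane proteases and prohibitins, 4 of 12 passed (Phb, Opa3, Spg7 and Phb2), and of outer membrane fusion modulators 3 of 9 (Miga2, Fbxl4 and Slc25a46), each 33.3% and near the share of all genes.

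Fission modulators had the lowest share of the 8 lists, with 1 of 14 called in the litter test (7.14%). This was Mtfp1, an inner membrane protein that promotes fission, at 31.5 and 27.6 CPM in litter 3 against 42.5 to 49.6 CPM across the other 6 libraries, with no overlap. It fell by 0.61 in litter 3 (SE 0.08, edgeR adjusted p = 0.000271) and rose by 0.31 in litter 1 (SE 0.08, adjusted p = 0.0199). The call in litter 1 was lost without its male, without its female and without both libraries of litter 3. Over all lists, 33 of 90 genes passed the litter test (36.7%, against 32.1% of all genes), and 9 were called higher in litter 1 and lower in litter 3, the reverse of Pink1 (10%, against 5.49% of all genes). The genes of all lists called higher in litter 1 were 14 of 90 (7.86% of all genes were), but 2 without its male and 2 without its female, 9 without the female of litter 2 and 6 without both libraries of litter 3. Over all genes, the count called higher there also fell, from 1082 to 225 without its male and to 275 without its female, and the median of the lists was 0.05 with all libraries and 0.08 and 0.04 in these fits. In litter 3, 13 of 90 were called higher and 21 lower, against 13.6% and 14.8% of all genes. These counts were 5 and 8 without its male, 1 and 7 without its female, 6 and 14 without male 1 (the number is the litter), 8 and 18 without female 1, and 15 and 16 with library size alone. Over all genes they fell from 1871 and 2032 to 1111 and 1123 without its male and to 731 and 973 without its female. By sex, 0 of the 90 passed, in edgeR. All these lists were chosen with earlier results of these data known and get no test of their own.

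**Figure D3:**
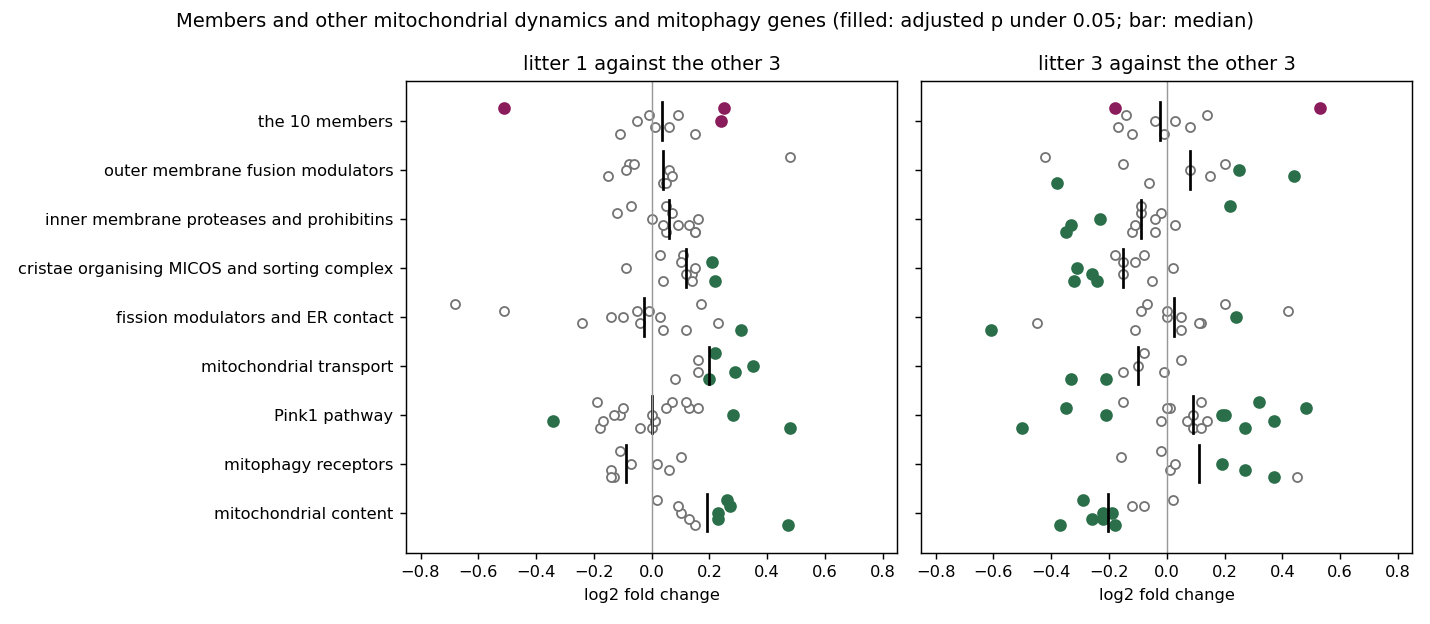
Log2 fold change (x axis) in litter 1 and in litter 3, each against the mean of the other 3, for the 10 genes and for the 8 role lists (points are genes, offset vertically for legibility; filled points have an edgeR adjusted p-value under 0.05; black bars are medians). The mitochondrial content genes have medians of 0.19 in litter 1 and -0.21 in litter 3, while Pink1 lies at -0.51 and 0.53.

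The genes whose levels followed those of Pink1, Opa1 and Dnm1l most closely were found by Pearson's r of log2 CPM over the 8 libraries, which fall into 4 litters and so are not independent. For Pink1 the nearest among the 13771 genes tested was Map1lc3b (r = 0.996), which encodes the autophagosome protein LC3B. It had 102 and 104 CPM in litter 1, 114 and 123 CPM in litter 2, 140.2 and 146 CPM in litter 4 and 166 and 172 CPM in litter 3. Its litters stand in the order of Pink1 with no overlap, as for 1.06% of all genes. It was picked for its likeness to Pink1, so this order is not a separate result. Bri3bp (r = 0.995) and Cbr1, a carbonyl reductase gene (r = 0.993), followed. For Opa1 the nearest were Dcbld2 (r = 0.990), Pdha1, a subunit of pyruvate dehydrogenase (r = 0.986), and Cpsf2 (r = 0.981). For Dnm1l they were Chpt1 (r = 0.982), Cse1l (r = 0.981) and Uba2 (r = 0.979). These values describe 8 libraries and have no test.

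**Figure D4:**
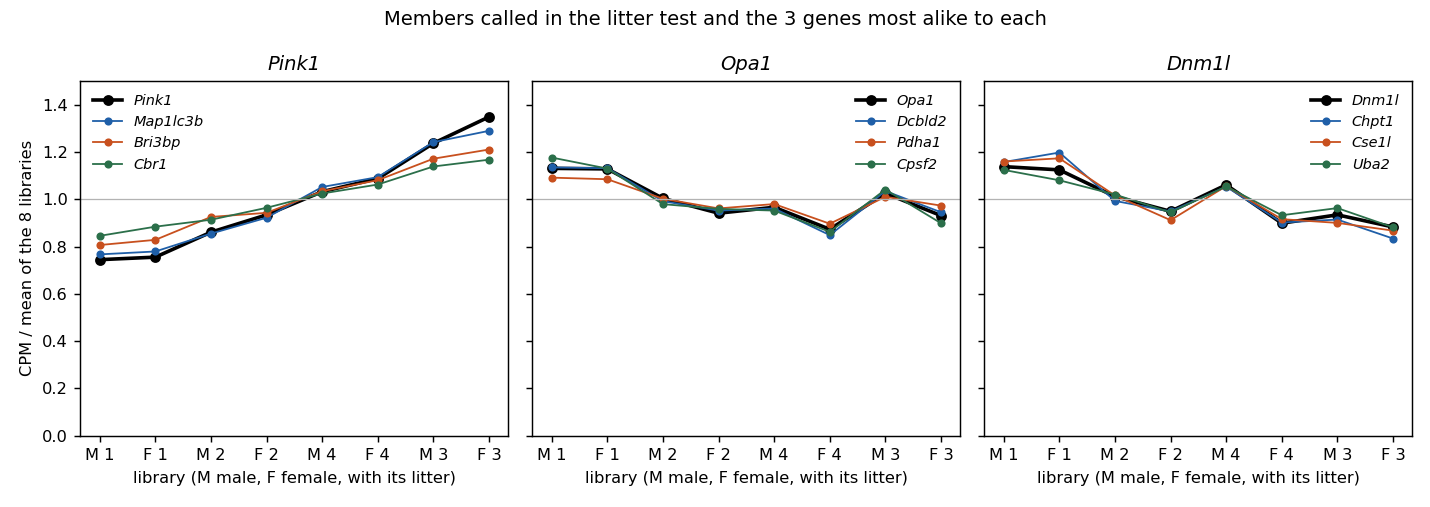
CPM relative to the mean of the 8 libraries (y axis, from 0) for Pink1, Opa1 and Dnm1l (black) and the 3 genes most alike to each (colours), with libraries in the order of litters 1, 2, 4 and 3 and the male before the female. Pink1 and Map1lc3b (r = 0.996) climb along this order of the litters, while Opa1 and Dnm1l are highest in litter 1.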

How the data were processed

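RNA of 8 purified cardiomyocyte samples was sequenced, per the labels' protocols, with a stranded total RNA kit, while the labels give the molecule as polyA RNA. The authors deposited raw read counts per gene symbol, whole numbers with no normalization. STAR 2.7.3a and mm10 are named in the submitters' processing notes; the counting program, its annotation and its strand setting are not given in the sources used here. Levels here are CPM after TMM scaling, and levels per kb use GENCODE M21 on GRCm38, which mm10 equals at the level of assembled chromosomes. Genes were filtered with filterByExpr on sex (13771 kept) and tested with edgeR 4.0.16 in R 4.3.3 (quasi-likelihood F test), with DESeq2 1.42.0 as an alternative. The sex test has no litter term (6 residual degrees of freedom), and the litter tests have a sex term (3). P-values were adjusted by Benjamini-Hochberg over all genes tested, threshold 0.05, and SEs were derived from each log2 fold change and its F statistic (absolute change over root F). Scripts were tested on simulated data.

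The labels state that a male and a female share a litter, so litter numbers pair samples. Correlations across genes of their deviations from the sex means were 0.506, 0.503, 0.696 and 0.367, against -0.482 to 0.27 for other pairs. Named genes were the 10 members, up to 4 genes a list with the smallest adjusted p-value among those called in the litter test, and the 3 most alike to each of 3 members. Members, lists and tests were chosen with earlier results of these data known. Alternatives were other scalings, filters, tests and gene lengths, and leaving out libraries or litters. The values of 1 listed gene are not reported here.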

Additional observations from a re-analysis of the deposited data

Results flagged for a closer look

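Within each sex, the highest or lowest of the 4 libraries was compared with the other 3, for the 10 genes and 7 marker sums, and in 3 of 34 such sets 1 library stood far from its 3 neighbours, where chance gives about 1.7. Mfn2 had 599 CPM in the female of litter 3, against 716 to 730 CPM in the other females. Fis1 had 79.9 CPM in the male of litter 4, against 64.9 to 67.4 CPM in the other males. Mural markers summed to 424 CPM in the female of litter 3, against 909 to 946 CPM in the other females. Most of this sum is Acta2, smooth muscle actin, which had 343 CPM (TMM-scaled) in that library and 804 to 896 CPM in the other females. The female of litter 3 is also the library with the lowest total count.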

How the results depend on the processing

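Pink1 passed the litter test in all 18 alternatives (edgeR or DESeq2 adjusted p from 1.59e-21 to 0.00279). These include a likelihood ratio test of DESeq2, and the others used edgeR. In edgeR, the differences of Pink1 in litters 1 and 3 passed in all 13 and 12 alternatives run for them. With litter as replicate block, which pairs the sexes of a litter, the sex test called 29 genes in place of 6 and none of the 10. Without 1 library it called 5 to 7 genes and 0 of the 10. Signs of small sex differences turned there: Pink1 was 0.02 without male 1 and 0.06 without female 3, Oma1 0.00, 0.03 and 0.03 without female 1, male 2 or male 4, Mfn2 -0.01 and -0.06 without male 2 or female 3, Mfn1 -0.00 without female 2, and Mief1 0.02 without female 4 (numbers are litters). Over all single-library fits these ran from -0.23 to 0.06 (Pink1), -0.10 to 0.03 (Oma1), -0.06 to 0.04 (Mfn2), -0.00 to 0.09 (Mfn1) and -0.06 to 0.02 (Mief1).

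The litter test called 4427 genes, 2964 to 4097 without 1 library and 1898 to 4586 without 1 litter (lowest without litter 3), and 1 to 3 of the 10 in both. Without the sex term it called 1 of the 10. Without 1 library, litter 1 had 359 to 1869 genes called (1 to 3 of the 10), litter 2 had 153 to 752 (0 of the 10), litter 3 had 1704 to 3791 (1 to 2) and litter 4 had 322 to 1302 (0). The lowest counts came without the male of litter 1, the female of litter 2, the female of litter 3 and the male of litter 4. Leaving out litter 3, an alternative chosen after seeing the data, gave 977 genes in litter 1, 271 in litter 2 and 2 of the 10 in litter 4 (Fis1 and Pink1). In litter 2, 1249 genes were called without the filter and 345 with a mean of at least 50 counts. With DESeq2 size factors or library size alone, 1 of the 10 was called in litter 3. In litter 4, 0 were called with DESeq2 size factors or without the filter. With library size alone, the split of genes called higher and lower was 2419 to 1698 in litter 3 (1871 to 2032 with TMM) and 262 to 1501 in litter 4 (648 to 799).

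Per kb of the longest transcript, levels were 160 (Mfn2), 123 (Pink1), 76.0 (Mfn1), 74.9 (Fis1), 55.9 (Dnm1l), 49.4 (Mff), 38.2 (Opa1), 9.84 (Oma1), 8.88 (Mief2) and 6.39 (Mief1) CPM, all above those per kb of merged exons by construction. The cause of the other changes was not tested. Each litter holds 2 libraries, which limits the precision of its mean.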
